A study of Mus musculus with 13 samples.

Results

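The cardiac myosin genes are described here as 9 rows of the gene tables, chosen by name. They are the heavy chains Myh6, Myh7 and Myh7b, the essential light chains Myl3, Myl4 and Myl1, the regulatory light chains Myl2 and Myl7, and Mybpc3, which encodes a thick filament protein that binds myosin. All 9 were present among the 26264 genes listed, and all 9 passed the filter on low read numbers. The tissue was the right ventricle of mice, and polyadenylated RNA was sequenced. The 7 libraries labelled Dsg2 F536C knock-in were set against 6 libraries labelled wild type. Dsg2 encodes the desmosomal cadherin desmoglein 2, which helps to hold heart muscle cells together, and the series concerns PPAR-gamma signalling in this mouse model of arrhythmogenic cardiomyopathy. The labels give neither strain, age, sex nor number of mutant alleles, and no treatment is named for any library of either group. The knocked-in amino acid change cannot be seen in read numbers per gene.

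Myosin is the motor of the thick filament. A pair of heavy chains carries the motor heads, and each head is braced by an essential and a regulatory light chain. The adult mouse ventricle uses mainly the fast alpha heavy chain encoded by Myh6, while the slow beta chain encoded by Myh7 dominates before birth and is known to return when the mouse heart is overloaded or injured. Light chains are divided by chamber: Myl2 and Myl3 are ventricular, and Myl7 and Myl4 are atrial in the adult.

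Total read numbers were 14498336 to 29848597 per library. Separate mice are not named in the labels, so a p-value covers only the variation among these libraries, which may be technical. CPM values are read numbers set to a common library total after TMM scaling, which sets the bulk of genes level between libraries, and they are used to compare a gene between groups. TPM values also divide by transcript length, and they are used to compare genes with each other. The libraries knock-in 4, 5 and 6 were unlike the rest: 10.2% to 10.7% of their estimated reads per gene were fractional, against 3.07% to 3.79% elsewhere. In these libraries the 4 epithelial markers that passed the filter summed to 2304 to 3498 CPM, against 9.65 to 34.2 CPM in wild type. The tests are therefore given with all 13 libraries and again with the 10 libraries that remain without these 3, and ranges are of 13 libraries unless stated. Fold changes are log2 values, knock-in over wild type, with standard errors (SE) from edgeR's quasi-likelihood test, and a gene was called at a Benjamini-Hochberg adjusted p under 0.05 over all genes tested.

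The mouse right ventricle was rich in myosin light chain RNA in both groups. On the TPM scale the order was the same at the top and the bottom: Myl2 was highest, then Myl3, Myh6 and Mybpc3, and Myh7 and Myh7b were lowest. Myl2 ranged over 12948 to 22146 TPM in knock-in and 22924 to 37665 TPM in wild type. Myl3 ranged over 4796 to 7725 TPM in knock-in and 6300 to 10537 TPM in wild type. Myh6 ranged over 1002 to 2031 TPM in knock-in and 1762 to 2797 TPM in wild type. These 3 ventricular genes and Myh7b kept clear of their neighbours in the order, with no overlap between one gene's values and the next within a group. The middle of the order was not resolved: Mybpc3, Myl4, Myl7 and Myl1 overlapped in their TPM values in each group, because Myl4 and Myl7 spread so widely between libraries. Myl1 lay above Myh7 in each of the 7 knock-in and each of the 6 wild-type libraries.

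**Figure D1:**
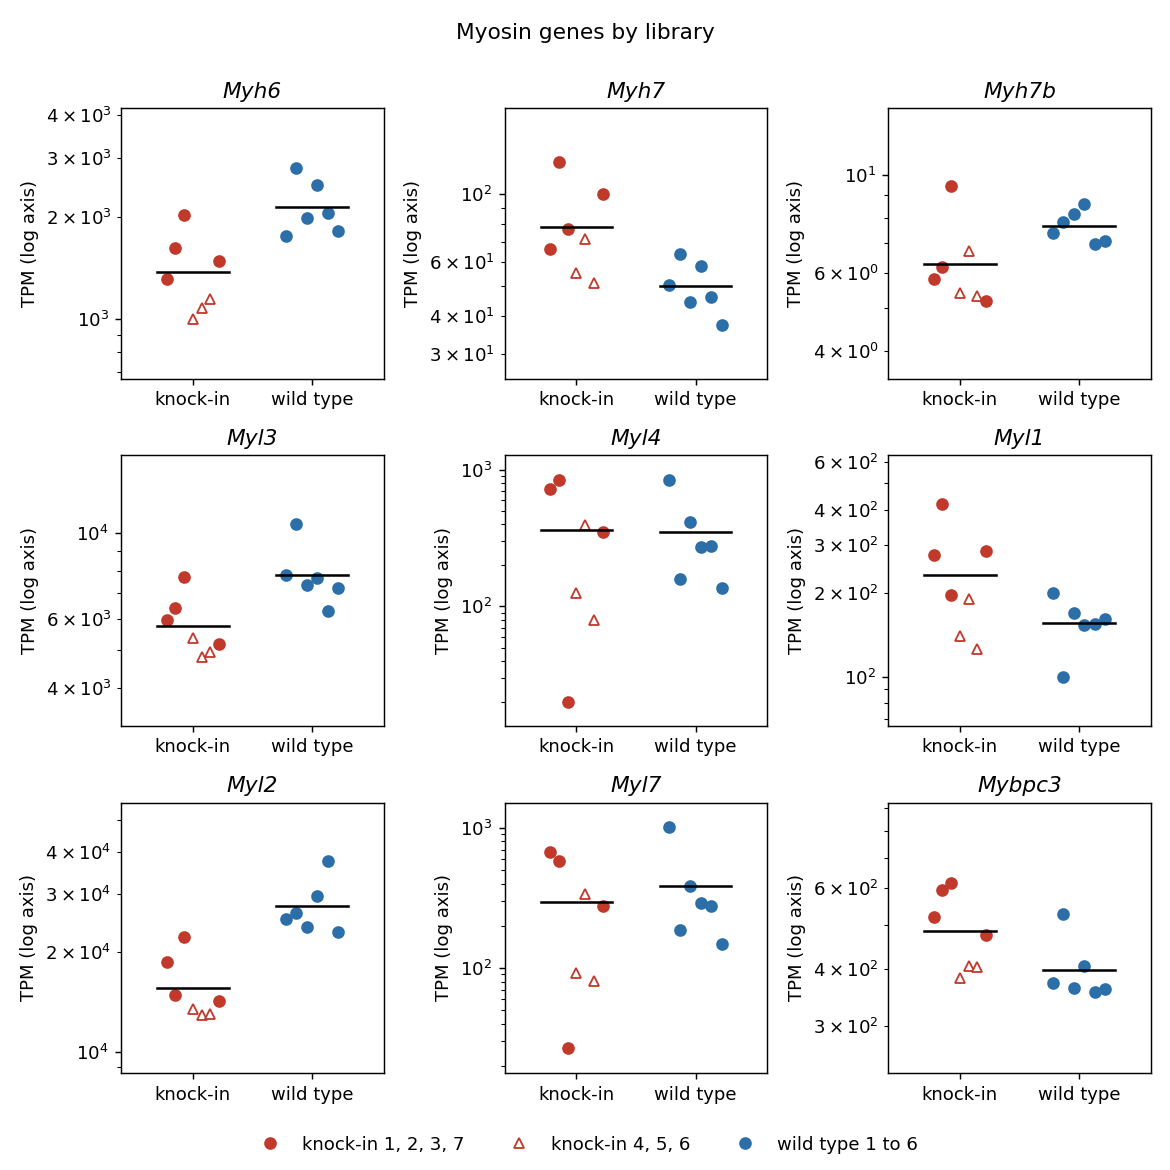
Level of each of the 9 genes in TPM (log axes) in the 7 knock-in libraries (circles, with open triangles for knock-in 4, 5 and 6) and the 6 wild-type libraries. Horizontal lines are group means. Myl2 lies at 12948 to 22146 TPM in knock-in, below all wild-type libraries, while Myl4 and Myl7 spread widely in both groups.

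The 9 genes together took 2.42% ± 0.489 (SD, n = 7) of all TPM in knock-in and 3.88% ± 0.517 (SD, n = 6) in wild type. Without knock-in 4, 5 and 6 the knock-in share was 2.72% ± 0.445 (SD, n = 4). The summed TPM of both regulatory chains was 11 ± 1.86 times that of the 3 heavy chains in knock-in and 12.9 ± 3 times in wild type (SD, n = 7 and n = 6). The summed TPM of the 3 essential chains was 4.43 ± 0.611 times that of the heavy chains in knock-in and 3.81 ± 0.624 times in wild type. Without knock-in 4, 5 and 6 the knock-in ratios were 10.6 ± 2.36 and 4.2 ± 0.637 (SD, n = 4). Both ratios overlapped between the groups.

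With 13 libraries, 4 of the 9 genes fell in knock-in (Myh6, Myh7b, Myl3 and Myl2) and 0 rose. Of all 14588 genes tested, 21.0% fell and 23.6% rose. With 10 libraries the same 4 fell and 1, Myh7, rose, beside 21.3% lower and 22.3% higher among 14518 genes. In both sets 3 of the 9, Myh6, Myl3 and Myl2, had CPM values in every knock-in library below every wild-type library. This held for 10.5% of all genes with 13 libraries and 15.0% with 10. None of the 9 lay wholly above wild type, as 8.60% of genes did with 13 libraries and 14.8% with 10. The median log2 fold change of the 9 was -0.73 with 13 libraries and -0.34 with 10, while that of all genes tested was 0.08 and 0.02. Scaling by library totals in place of TMM moved the median of all genes to 0.33 with 13 libraries and 0.26 with 10, and the calls over all genes to 6110 higher and 1661 lower, against 3442 and 3060 with TMM and 13 libraries. The same exchange with 10 libraries gave 6049 higher and 1528 lower, against 3241 and 3099 with TMM. Fold changes of the myosin genes moved upward with it by about the same amount.

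The heavy chains did not move together. Myh6 fell. Its level was 4087, 5670 and 8814 CPM (lowest, median and highest) in knock-in and 9295, 12429 and 13657 CPM in wild type. The log2 fold change was -1.05 ± 0.18 (SE; edgeR quasi-likelihood test, adjusted p = 0.000551). In CPM the groups did not overlap, and knock-in 4, 5 and 6 lay lowest of all, but in TPM the highest of them, knock-in 3, reached into the wild-type range. With 10 libraries the 4 knock-in values were 5540, 7096, 8606 and 5924 CPM, and the log2 fold change was -0.79 ± 0.17 (edgeR, adjusted p = 0.00180).

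Myh7, the beta chain, was at 203, 287 and 570 CPM (lowest, median and highest) in knock-in and 229, 281 and 322 CPM in wild type. Its log2 fold change over 13 libraries was 0.24 ± 0.20 and did not pass the test (edgeR, adjusted p = 0.350). Without knock-in 2 it was 0.055. Knock-in 2 and knock-in 7 lay above all wild-type libraries and knock-in 3 slightly above them, while knock-in 1, 4 and 5 lay within the wild-type range and knock-in 6 below it. With 10 libraries the knock-in values were 281, 556, 329 and 400 CPM, and Myh7 rose by 0.51 ± 0.16 on the log2 scale (edgeR, adjusted p = 0.0207). That call was lost without knock-in 2 (0.28, adjusted p = 0.111) and without knock-in 7 (0.50, adjusted p = 0.0556). With all 13 libraries and a separate term for knock-in 4, 5 and 6, the log2 fold change was 0.51 (edgeR, adjusted p = 0.0219). That term leaves knock-in 1, 2, 3 and 7 against wild type, as with 10 libraries, so it is no separate support. Limma on log2(TPM + 1) with 13 libraries called Myh7 higher (0.59, adjusted p = 0.0190), on a scale where the median of all genes lay at 0.385. Of the 24 alternatives with 13 libraries, 5 called Myh7 higher and 19 did not.

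Myh7b, a slow-tonic heavy chain, was the least abundant of the 9. It was at 21.3, 25.5 and 41.7 CPM in knock-in and 38.1, 44.4 and 51.6 CPM in wild type. It fell by 0.73 ± 0.15 on the log2 scale with 13 libraries (edgeR, adjusted p = 0.00153). The groups overlapped only through knock-in 3, which lay at 41.7 CPM while the other 6 knock-in libraries lay below every wild-type library. With 10 libraries it fell by 0.61 ± 0.15 (edgeR, adjusted p = 0.00586). On log2(TPM + 1), a scale that does not use TMM, the change was -0.27 with 13 libraries and the call was lost (limma, adjusted p = 0.0753).

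Reads of Myh6 and Myh7 were fractional in each of the 13 libraries, whereas those of the other 7 genes were whole in all 13, to a tolerance of 1e-09. The 2 heavy chains lie next to each other on the same strand and have near-identical stretches: 22.2% of 50-base windows of Myh7 transcripts occur unchanged in Myh6, as do 11.2% of 100-base and 5.43% of 150-base windows (GENCODE transcripts of build GRCm38). The values of both genes therefore include reads that were divided between them by estimation, and Myh7, the lower of the pair, has the less certain level. The antisense RNA Mhrt lies on the opposite strand at this locus, and 484 of its 1214 annotated exon bases overlap Myh7 exons. The strand setting of the counting is not given in the sources used here, so reads of Myh7 and Mhrt may not be fully separated. Reads of Mhrt were fractional in 3 knock-in libraries and in 0 wild-type libraries. Mhrt was at 11.9, 13.3 and 23.6 CPM in knock-in and 24.2, 28.7 and 33.6 CPM in wild type, and it fell by 0.84 ± 0.17 on the log2 scale (edgeR, adjusted p = 0.00167; with 10 libraries -0.60 ± 0.14, adjusted p = 0.00379).

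Each of the 3 heavy chain genes carries a microRNA in an intron, on its own strand. The mature sequences from RefSeq (build GRCm38.p6) are given 5′ to 3′, to show how closely related the intronic products of the 3 genes are, with the seed, bases 2 to 8, in capitals.
mmu-miR-208a-3p, in Myh6, chr14:54949072-54949093, minus strand: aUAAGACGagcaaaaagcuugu
mmu-miR-208b-3p, in Myh7, chr14:54975710-54975731, minus strand: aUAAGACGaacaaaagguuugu
mmu-miR-499-5p, in Myh7b, chr2:155622893-155622913, plus strand: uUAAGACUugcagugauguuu
The microRNAs of Myh6 and Myh7 share the seed UAAGACG, and that of Myh7b has UAAGACU. Libraries of polyadenylated RNA do not measure mature microRNAs. The precursor genes Mir208a and Mir208b had 0 reads in all 13 libraries, and Mir499 had at most 2 reads in any library, so nothing can be said of these products here.

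The balance between the heavy chains differed between the groups, with Myh6 called lower and Myh7 not called over 13 libraries. A ratio within a library does not depend on how libraries are scaled. The Myh7 to Myh6 ratio in TPM was 0.038, 0.0552 and 0.078 (lowest, median and highest) in knock-in and 0.0206, 0.0227 and 0.0286 in wild type. Every knock-in library, including knock-in 4, 5 and 6, lay above every wild-type library. The difference of mean log2 ratios was 1.26 ± 0.15 (SE), a 2.39-fold higher ratio in knock-in (exact permutation test over libraries, two-sided, p = 0.00117, the smallest these 13 libraries can give; adjusted over the 8 ratios tested, 0.00311). With 10 libraries it was 1.27 ± 0.24, or 2.42-fold (exact permutation p = 0.00952, again the smallest possible; adjusted 0.0254). Myh7 made up 5.39% ± 1.26 of the summed Myh6 and Myh7 TPM in knock-in and 2.29% ± 0.259 in wild type (SD, n = 7 and n = 6), and the knock-in share without knock-in 4, 5 and 6 was 5.5% ± 1.58 (SD, n = 4). Myh6 still supplied most of the heavy chain RNA in every library. Within knock-in the share was lowest in knock-in 3, at 3.66%, and highest in knock-in 2, at 7.24%.

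The Myh7b to Myh7 ratio went the other way. It was 0.0488 to 0.122 in knock-in and 0.122 to 0.189 in wild type, so that the groups met at one value, with knock-in 3 and wild type 2 at the edge. The log2 difference was -0.90 ± 0.21 with 13 libraries (exact permutation test, two-sided, p = 0.00117; adjusted 0.00311) and -1.10 ± 0.33 with 10 (p = 0.00952; adjusted 0.0254). As a share of the 3 heavy chains, Myh7b was 0.439% ± 0.0876 of TPM in knock-in and 0.354% ± 0.0506 in wild type, with overlapping ranges. Without knock-in 4, 5 and 6 the knock-in share was 0.386% ± 0.0562 (SD, n = 4).

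**Figure D2:**
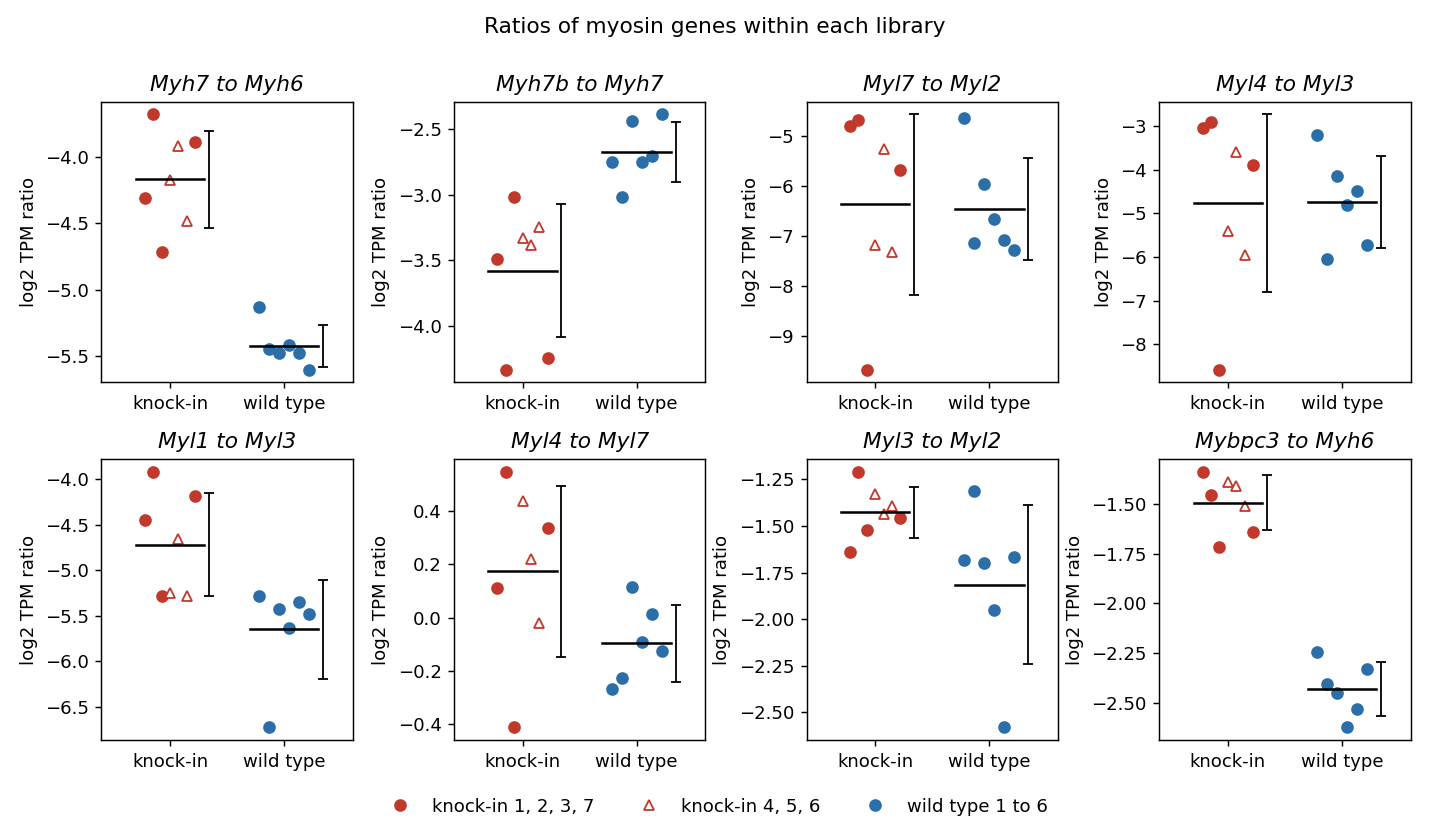
Log2 ratios of TPM between pairs of genes within each library, for 7 knock-in (left in each panel, open triangles for knock-in 4, 5 and 6) and 6 wild-type libraries (right). Lines are group means and bars show 1 SD. Myh7 to Myh6 and Mybpc3 to Myh6 separate the groups fully, whereas the ratios of atrial to ventricular light chains overlap throughout.

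The promoters of Myh6 and Myh7 are shown because the balance of these neighbouring genes differed between the groups. Each is the 250 bases before an annotated start site, from RefSeq (build GRCm38.p6), 5′ to 3′ on the gene's strand, and that of Myh7 belongs to the outer of its 2 annotated starts.
Myh6, chr14:54966608-54966857, minus strand: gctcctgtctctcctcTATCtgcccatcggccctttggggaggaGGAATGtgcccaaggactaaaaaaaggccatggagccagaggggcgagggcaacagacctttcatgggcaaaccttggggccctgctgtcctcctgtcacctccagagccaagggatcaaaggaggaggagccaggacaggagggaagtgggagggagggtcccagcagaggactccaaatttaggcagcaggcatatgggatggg
Myh7, chr14:54994627-54994876, minus strand: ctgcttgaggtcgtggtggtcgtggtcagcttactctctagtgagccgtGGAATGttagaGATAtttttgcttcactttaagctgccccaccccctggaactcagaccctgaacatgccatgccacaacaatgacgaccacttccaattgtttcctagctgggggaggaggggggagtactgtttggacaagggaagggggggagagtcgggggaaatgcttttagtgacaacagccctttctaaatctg
Capitals mark GATA, the core of GATA factor sites, which reads TATC where it lies on the other strand. They also mark CATTCC, the core bound by TEAD factors, which reads GGAATG where it lies on the other strand. Both promoters hold 1 of each. Among 32526 mouse promoters of the same length, 53.4% hold GATA and 12.6% hold CATTCC on either strand, and a match describes letters, not binding. The inner start of Myh7 has neither in its 250 bases.

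Among the essential light chains, the ventricular Myl3 fell. It was at 2166, 2790 and 3973 CPM (lowest, median and highest) in knock-in and 4643, 5113 and 5932 CPM in wild type, with no overlap. Its log2 fold change was -0.84 ± 0.14 with 13 libraries (edgeR, adjusted p = 0.000467) and -0.67 ± 0.14 with 10 (adjusted p = 0.00197). In TPM, knock-in 2 and knock-in 3, at 6395 and 7725 TPM, lay within the wild-type range. On log2(TPM + 1) with 10 libraries the call was lost (-0.30; limma, adjusted p = 0.0621).

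Myl1 encodes the essential chain of fast skeletal muscle. It lay at 51.5 to 198 CPM in knock-in and 50.4 to 111 CPM in wild type, so the ranges overlapped. Its log2 fold change was 0.13 ± 0.28 with 13 libraries (edgeR, adjusted p = 0.717) and 0.50 ± 0.24 with 10 (adjusted p = 0.107), where it was called without knock-in 3 (0.65, adjusted p = 0.0435). With 10 libraries it was also called higher by library totals (0.75, adjusted p = 0.0165) and by limma on log2(TPM + 1) (0.88, adjusted p = 0.00281), scales on which the median of all genes lay at 0.26 and 0.32. Knock-in 1, 2 and 7 had 123, 198 and 119 CPM, above all wild-type libraries, while knock-in 3 and knock-in 4, 5 and 6 lay within their range. Set against the ventricular chain of the same library, Myl1 was relatively higher: the Myl1 to Myl3 ratio was 0.0256 to 0.0659 in knock-in and 0.00945 to 0.0257 in wild type. The log2 difference was 0.93 ± 0.31, or 1.91-fold (exact permutation test, two-sided, p = 0.0035; adjusted 0.00699), with wild type 2 far below the others. With 10 libraries it was 1.19 ± 0.37, or 2.28-fold (exact permutation p = 0.019; adjusted 0.0381), a call lost without any 1 of knock-in 1, 2 and 7 and wild type 2, 3, 4, 5 and 6.

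Other skeletal muscle transcripts gave no common direction with Myl1. Of 11 genes for skeletal and developmental myosins and their partners, 8 had too few reads to test, among them Myh1, Myh2, Myh3, Myh4 and Myh8, the heavy chains of skeletal muscle and of its development. Of the 3 tested with 13 libraries, 2 rose and 1 fell, where 23.6% of all genes rose and 21.0% fell. Mylpf, the fast skeletal regulatory chain, fell by 1.08 ± 0.22 on the log2 scale (edgeR, adjusted p = 0.00148; 10 libraries -1.23, adjusted p = 0.00238) at 0.484 to 0.956 CPM in knock-in and 1.29 to 2.02 CPM in wild type. Mybpc2, the fast skeletal myosin-binding protein, rose by 0.56 ± 0.17 (adjusted p = 0.0181; with 10 libraries 0.75, adjusted p = 0.00179). Myl6b rose with 13 libraries only (2.19 ± 0.75, adjusted p = 0.0313), and with 10 its log2 fold change was -0.19 (adjusted p = 0.423). The skeletal muscle markers that passed the filter summed to 9.02 to 79.3 CPM in knock-in and 10.3 to 13.3 CPM in wild type. With 10 libraries the knock-in range was 8.27 to 11.5 CPM, and 1 of 6 tested rose and 2 fell. Their part in the level of Myl1 was not tested.

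The regulatory chain of the ventricle, Myl2, had the lowest log2 fold change of the 9. It was at 3797, 4553 and 7435 CPM (lowest, median and highest) in knock-in and 9561, 10965 and 18036 CPM in wild type. The groups did not overlap in CPM or in TPM. Its log2 fold change was -1.25 ± 0.19 with 13 libraries (edgeR, adjusted p = 0.000211) and -1.05 ± 0.20 with 10 (adjusted p = 0.00108). Wild type 5 was the highest library, at 18036 CPM, and without it the log2 fold change was -1.07. Myl2 passed the test under all 24 alternatives tried with 13 libraries and all 20 with 10.

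Both ventricular light chains fell, Myl2 slightly further than Myl3. The Myl3 to Myl2 ratio was 0.321 to 0.432 in knock-in and 0.167 to 0.403 in wild type, overlapping. The log2 difference was 0.39 ± 0.18 (exact permutation test, two-sided, p = 0.0233; adjusted 0.0373). That call was lost without any 1 of knock-in 2, 4, 5, 6 and 7 and wild type 1, 3, 4, 5 and 6, and it was not made with 10 libraries (0.36 ± 0.20, exact permutation p = 0.105; adjusted 0.168).

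The atrial chains Myl4 and Myl7 were present in these ventricular libraries at levels that varied far more within a group than between groups. Myl4 had 365, 444, 10.2, 64.7, 176, 36.8 and 169 CPM in knock-in 1 to 7, and 520, 88.2, 296, 176, 203 and 96.8 CPM in wild type 1 to 6. Myl7 had 185, 167, 7.47, 26.3, 82.8, 20.6 and 74 CPM in knock-in 1 to 7, and 344, 56.8, 151, 104, 111 and 58.2 CPM in wild type 1 to 6. Both genes were lowest in knock-in 3 and highest in wild type 1, and across libraries of each group they went up and down together. The log2 fold change of Myl4 was -0.35 ± 0.71 with 13 libraries (edgeR, adjusted p = 0.707) and 0.10 ± 0.87 with 10 (adjusted p = 0.934). That of Myl7 was -0.77 ± 0.67 (adjusted p = 0.359) and -0.34 ± 0.82 (adjusted p = 0.768). With 13 libraries the value of Myl7 was -0.26 without wild type 1 and -1.12 without knock-in 1. The wide standard errors leave changes of either sign possible.

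Ratios between atrial and ventricular chains were equally scattered. Myl7 made up 0.121% to 3.77% of the summed Myl2 and Myl7 TPM in knock-in and 0.641% to 3.87% in wild type. The log2 Myl7 to Myl2 ratio differed by 0.09 ± 0.80 between knock-in and wild type (exact permutation test, two-sided, p = 0.921; adjusted 0.988), and the log2 Myl4 to Myl3 ratio by -0.03 ± 0.88 (p = 0.988; adjusted 0.988). With 10 libraries these were 0.25 ± 1.25 (exact permutation p = 0.886) and 0.14 ± 1.41 (exact permutation p = 0.971). The ratio of the atrial pair to each other was far tighter: Myl4 to Myl7 was 0.75 to 1.46 in knock-in and 0.831 to 1.08 in wild type. Its log2 difference was 0.27 ± 0.14 (exact permutation p = 0.0886; adjusted 0.118) and did not pass, nor with 10 libraries (0.24 ± 0.22, exact permutation p = 0.219; adjusted 0.292).

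**Figure D3:**
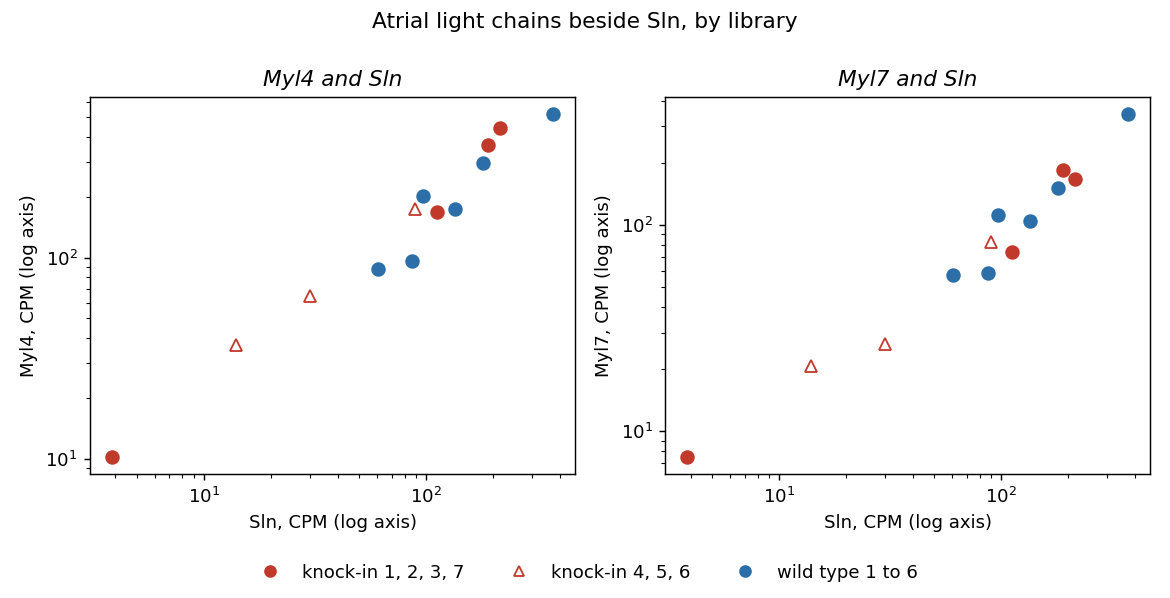
CPM of Myl4 (left) and Myl7 (right) against CPM of Sln in each library, on log axes, for 7 knock-in libraries (circles, open triangles for knock-in 4, 5 and 6) and 6 wild-type libraries. Both light chains follow Sln over the whole range, from knock-in 3 at 3.87 CPM of Sln to wild type 1 at 373 CPM.

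The variation of Myl4 and Myl7 was shared by 2 other genes of atrial muscle. Sln encodes sarcolipin, the atrial inhibitor of the calcium pump, and Mybphl a protein related to myosin-binding protein H. Sln had 189, 215, 3.87, 30, 89.5, 13.9 and 112 CPM in knock-in 1 to 7, and 373, 60.5, 180, 135, 96.8 and 86.8 CPM in wild type 1 to 6. With log2 CPM centred on the group means, Pearson's r across 13 libraries was 0.991 between Myl4 and Myl7, 0.987 between Myl4 and Sln, and 0.987 between Myl7 and Mybphl. Over 10 libraries these were 0.993, 0.986 and 0.990. The points share libraries and scaling, and knock-in 3 is far from the rest. The other 8 atrial markers tested followed Myl7 less closely or not at all. Nppa, atrial natriuretic peptide, had an r of 0.776 over 13 libraries and 0.785 over 10, and Dkk3 had 0.740 and 0.753. Stard10 had 0.406 and 0.883, and Gja5, an atrial and conduction connexin, had 0.076 and 0.415. For Nr2f1 they were -0.169 and 0.405, for Nr2f2 -0.231 and 0.155, for the potassium channel Kcna5 0.017 and -0.189, and for Kcnj3 -0.023 and -0.471.

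Of the 10 atrial markers tested, 3 rose (Nppa, Dkk3 and Nr2f2) and 1 fell (Kcnj3), with 13 and with 10 libraries. Of all genes tested, 23.6% rose and 21.0% fell with 13 libraries, and 22.3% and 21.3% with 10. The sum of the 10 atrial markers was 1127 to 5120 CPM in knock-in and 569 to 1823 CPM in wild type. In knock-in the largest part of it was Nppa, at 833 to 4421 CPM, against 93.9 to 911 CPM in wild type. Nppa is also one of the load-induced genes given below. Bmp10, restricted to atrial muscle in the adult mouse, was detected at up to 24 reads in 4 knock-in libraries and up to 10 reads in 4 wild-type libraries. The part of atrial tissue in the levels of Myl4 and Myl7 was not tested. Among the 5 ventricular markers, Kcnip2, Irx4 and Hey2 fell and Irx5 rose in both sets; with 13 libraries they summed to 127 to 264 CPM in knock-in and 212 to 266 CPM in wild type, with 149 to 264 CPM in knock-in 4, 5 and 6. With 10 libraries the sums were 124 to 161 CPM in knock-in and 207 to 260 CPM in wild type, with no overlap.

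The promoters of Myl4 and Myl7 are given because this pair varied together so closely. They cover the 250 bases before the start site, as for the heavy chains, on the gene's strand.
Myl4, chr11:104550413-104550662, plus strand: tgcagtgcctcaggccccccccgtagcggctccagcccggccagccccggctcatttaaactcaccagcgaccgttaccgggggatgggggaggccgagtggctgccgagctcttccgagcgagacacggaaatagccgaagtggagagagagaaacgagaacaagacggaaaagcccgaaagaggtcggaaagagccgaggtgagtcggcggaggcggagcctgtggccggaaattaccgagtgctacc
Myl7, chr11:5898783-5899032, minus strand: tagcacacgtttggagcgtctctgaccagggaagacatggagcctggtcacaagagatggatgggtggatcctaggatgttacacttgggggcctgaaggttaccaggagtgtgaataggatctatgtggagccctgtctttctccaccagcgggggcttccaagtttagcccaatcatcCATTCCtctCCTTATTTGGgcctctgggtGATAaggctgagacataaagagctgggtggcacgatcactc
Capitals mark the CATTCC core, the GATA core and the CArG box, the element of serum response factor, which 1.48% of all 32526 promoters hold. Myl7 has 1 of each. Myl4 has none of the 7 motifs searched in this window, which says only that those letters are not there. The other motifs were CANNTG, in 66.2% of promoters, the TATA box as TATAAA, in 12.3%, the nuclear receptor core AGGTCA, in 14%, and the MEF2 box, in 2.89%. Each was searched on either strand, and matches of the AT-rich ones may share bases.

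Mybpc3, which encodes cardiac myosin-binding protein C, did not pass the test. It was at 1045, 1322 and 1822 CPM in knock-in and 1337, 1510 and 1708 CPM in wild type (lowest, median and highest), and the log2 fold change was -0.12 ± 0.15 (edgeR, adjusted p = 0.511). With 10 libraries it was 0.10 ± 0.12 (adjusted p = 0.554). The sign depended on the scaling: by library totals it was 0.12 with 13 libraries (adjusted p = 0.498) and 0.34 with 10, where it passed the test (adjusted p = 0.0191). With 10 libraries Mybpc3 was also called higher by limma on log2(TPM + 1) (0.48, adjusted p = 0.00337). On these 2 scales the median of all genes lay at 0.26 and 0.32 with 10 libraries. Of the 20 alternatives with 10 libraries, 5 called Mybpc3 higher and 15 did not. Knock-in 4, 5 and 6, at 1045 to 1134 CPM, and knock-in 7, at 1322 CPM, lay below all wild-type libraries, while knock-in 1, 2 and 3, at 1521 to 1822 CPM, lay at or above their middle.

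Relative to the heavy chain it binds, Mybpc3 was higher in knock-in. The Mybpc3 to Myh6 ratio in TPM was 0.304, 0.364 and 0.395 (lowest, median and highest) in knock-in and 0.162, 0.186 and 0.211 in wild type. The groups did not overlap, and knock-in 4, 5 and 6 lay among the other knock-in libraries. The log2 difference was 0.94 ± 0.08, or 1.91-fold (exact permutation test, two-sided, p = 0.00117; adjusted 0.00311), and 0.89 ± 0.10, or 1.86-fold, with 10 libraries (p = 0.00952; adjusted 0.0254).

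The falls of Myh6, Myl2 and Myl3 stood beside a fall of cardiomyocyte genes at large. All 16 cardiomyocyte markers tested fell with 13 libraries and 14 of 16 with 10, where 21.0% and 21.3% of all genes fell. The sum of these markers was 34089 to 66468 CPM in knock-in and 76408 to 115020 CPM in wild type. In bulk tissue, fewer cardiomyocytes and less RNA per cardiomyocyte cannot be told apart. The 9 genes were therefore also scaled on 10 other sarcomere genes (Tnnt2, Tnnc1, Tnni3, Actc1, Actn2, Ttn, Ldb3, Tcap, Csrp3 and Myoz2), which makes each value a difference from those genes and not from all genes. On this scale Myl2 still fell (-0.35 with 13 libraries and -0.41 with 10). The log2 fold change of Myl3 was 0.03, that of Myh7b 0.17 and that of Myh6 -0.19 with 13 libraries, none of them called (edgeR, adjusted p = 0.0588 for Myh6). Myh7 at 1.09 (adjusted p = 0.000149), Myl1 at 0.96 (adjusted p = 0.00176) and Mybpc3 at 0.74 were called higher. In TPM over the geometric mean of these 10 genes, with no test, Myh7 and Mybpc3 lay above wild type in every knock-in library, in both sets.

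**Figure D4:**
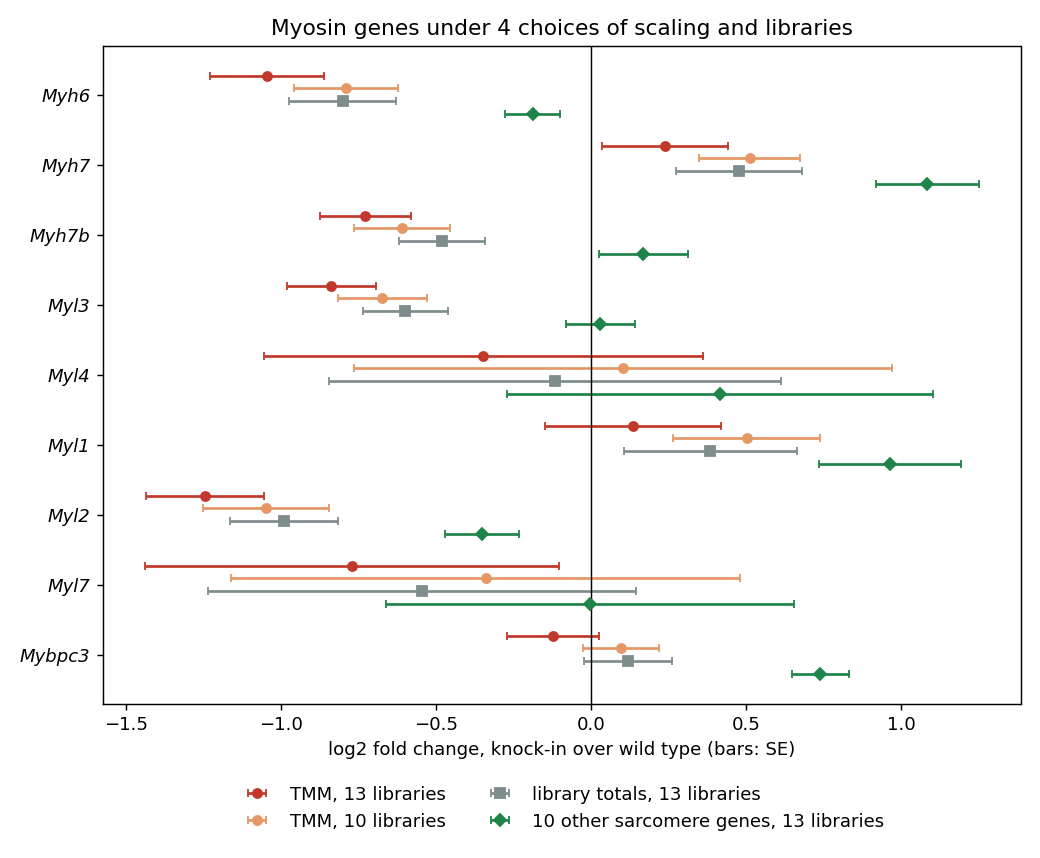
Log2 fold change of each gene, knock-in over wild type, with SE bars, under TMM scaling with 13 and 10 libraries, library totals with 13, and scaling on 10 other sarcomere genes with 13. Myl2 lies below 0 under all 4 and Myh7 above 0, whereas Mybpc3 runs over -0.12, 0.10, 0.12 and 0.74.

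Genes whose log2 CPM, centred on the group means, followed each member most closely among 13841 genes were found by the smaller of Pearson's r over 13 and over 10 libraries. For Mybpc3 these were Actn2 (r = 0.988 over 13 libraries), Rab12 and Srl. For Myl3 they were Dynll2 (0.967), Coro6 and Rab12, and for Myh6 they included Atp5b (0.951) and Cdh2. For Myl2 they were Hopx (0.906), Ttc9c and Mrps15, a looser likeness than for Myl3 or Mybpc3. For Myh7 they were Sema6b (0.944), Pfkp and Prnp, for Myh7b Lgals4 (0.951), Ggnbp1 and Catsper2, and for Myl1 9630013D21Rik (0.942), Adh1 and Nrtn. For Myl4 and Myl7 they were the same 3 genes, Sln, Mybphl and Lmntd1. Between members, Mybpc3 went with Myh6 (0.923 over 13 libraries, 0.789 over 10) and Myl3 (0.903 and 0.886). Myh6 and Myh7 had 0.684 over 13 libraries and 0.346 over 10. All these values share the same libraries and scaling and are descriptions, as the largest of many.

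Of 16 genes for myosin kinases, chaperones, M-band proteins and ubiquitin ligases, 10 were called lower and 1 higher with 13 libraries, where 21.0% of all genes were lower, and 8 lower and 1 higher with 10, where 21.3% were lower. Unc45b, the chaperone that folds myosin heads, was at 66.3 to 126 CPM in knock-in and 147 to 201 CPM in wild type, a log2 fold change of -1.02 ± 0.15 (edgeR, adjusted p = 0.000185; 10 libraries -0.78, adjusted p = 0.000111). Trim63, the ubiquitin ligase MuRF1, which targets myosin for breakdown, fell by 1.04 ± 0.16 (adjusted p = 0.000249; 10 libraries -0.81, adjusted p = 0.00033). Mylk4, a myosin light chain kinase family member, fell by 0.98 ± 0.18 (adjusted p = 0.000767; 10 libraries -0.70, adjusted p = 0.000529). The 1 that rose was Mylk2, the kinase of skeletal muscle, at 1.07 to 2.57 CPM in knock-in and 0.373 to 1.17 CPM in wild type (1.32 ± 0.32, adjusted p = 0.00463; 10 libraries 1.62, adjusted p = 0.00105), which is named because it was alone, after its values were seen.

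Of 21 transcription factors and cofactors known to act on cardiac myosin genes, 12 were lower and 1 higher in knock-in with 13 libraries, and 10 lower and 1 higher with 10. Of all genes tested, 21.0% were lower and 23.6% higher with 13 libraries, and 21.3% and 22.3% with 10. Irx4, a ventricular factor that in mouse and chick keeps ventricular and atrial myosin genes apart, was at 12.2 to 22 CPM in knock-in and 25.8 to 38.7 CPM in wild type (-0.97 ± 0.15; edgeR, adjusted p = 0.000203; 10 libraries -0.84, adjusted p = 0.000324). Mef2a, a MADS-box activator of muscle genes, fell by 0.63 ± 0.10 (adjusted p = 0.000354; 10 libraries -0.55, adjusted p = 0.000945). Nr2f2, which gives atrial muscle its identity in mouse and is also made by endothelium and stroma, was the 1 that rose, by 1.11 ± 0.21 (adjusted p = 0.00115; 10 libraries 0.75, adjusted p = 9.48e-05). The thyroid hormone receptors, which switch Myh6 and Myh7, were picked after their values were seen: Thrb fell by 0.54 ± 0.13 (adjusted p = 0.00544; 10 libraries -0.45, adjusted p = 0.00528), and Thra by 0.30 ± 0.11 with 13 libraries (adjusted p = 0.0370), a call lost with 10 (-0.21, adjusted p = 0.133).

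Genes that mouse cardiomyocytes switch on under load, often together with Myh7, had larger log2 fold changes than Myh7. Of 5 listed, Tnni1 had too few reads to test and all of the other 4 rose in both sets. Of all genes tested, 23.6% rose with 13 libraries and 22.3% with 10. Acta1, skeletal alpha-actin, was at 238 to 1069 CPM in knock-in and 14.2 to 39.5 CPM in wild type, a log2 fold change of 4.51 ± 0.38 (edgeR, adjusted p = 4.75e-06; 10 libraries 4.05). Nppb, B-type natriuretic peptide, rose by 2.81 ± 0.31 (adjusted p = 2.69e-05; 10 libraries 3.08) and Ankrd1, a stretch-responsive titin-binding protein, by 2.29 ± 0.26 (adjusted p = 2.87e-05; 10 libraries 2.55). The log2 fold change of Myh7, by comparison, was 0.24 ± 0.20 and 0.51 ± 0.16.

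Several myosins of smooth muscle and non-muscle cells rose. Of 8 such genes, 5 were called higher and 0 lower with 13 libraries, and 4 higher and 0 lower with 10. Of all genes tested, 23.6% were higher and 21.0% lower with 13 libraries, and 22.3% and 21.3% with 10. Myl6 and Myl9 were called with 13 libraries only, and Myh11 with 10 only. Myh10, non-muscle myosin IIB, was at 75.2 to 104 CPM in knock-in and 51.9 to 68.5 CPM in wild type (0.65 ± 0.11; edgeR, adjusted p = 0.000387; 10 libraries 0.63, adjusted p = 0.000482). Myl12b, a non-muscle regulatory chain, rose by 1.31 ± 0.30 (adjusted p = 0.00350; 10 libraries 0.56, adjusted p = 0.000535), and Myh9, non-muscle myosin IIA, by 1.77 ± 0.41 (adjusted p = 0.00440; 10 libraries 0.61, adjusted p = 0.000667). For Myl12b and Myh9 much of the value over 13 libraries came from knock-in 4, 5 and 6, where the epithelial markers were high. The 6 smooth muscle markers summed to 468 to 1035 CPM in knock-in and 372 to 532 CPM in wild type, with 3 called higher in each set, and their part was not tested.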

How the data were processed

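Per the labels' protocols, polyadenylated RNA from right ventricles was made into stranded libraries. DRAGEN and the build GRCm39 (mm39) are named in the submitters' processing notes. Neither annotation nor strand setting is stated there or elsewhere in the sources used here. The authors deposited, per the file headers, estimated counts of each gene with TPM and effective lengths. Groups and replicate numbers come from the titles.

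Estimated counts were rounded, filtered with filterByExpr, scaled by TMM and tested with edgeR 4.0.16 (glmQLFit, robust; R 4.3.3) with no covariate, over 14588 genes with 13 libraries and 14518 with 10. A library was set apart where its share of values that were not whole was over 2 times the median. SE values are derived from the fold change and its F statistic. The 8 ratios used log2(TPM + 0.1) of each gene and exact permutation of group labels over libraries, two-sided, with Benjamini-Hochberg adjustment over the 8. The edgeR test was tried on simulated counts with known changes, and the ratio tests were not. Ratios and correlations used numpy 2.4.6, scipy 1.17.1 and pandas 2.3.3. Alternatives were other scalings, DESeq2 1.42.0, limma 3.58.1 on log2 TPM, no filter, length offsets, other pseudocounts, a replicate block, an indicator for knock-in 4, 5 and 6, and each library left out. Replicate numbers were not used in the main tests.

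Members, lists and the naming rule were chosen with earlier results of these data known. The rule names all 9 members, up to 3 tested genes of each list by smallest p, a cell type list's defining members, and the 3 most alike genes averaging 1 CPM or more, of which 1 is not reported here. Promoters and microRNAs were matched by symbol: all 9 members and the 3 microRNAs were found. Their coordinates are of GRCm38.p6, an older build than that of the counts.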

Additional observations from a re-analysis of the deposited data

Results flagged for a closer look

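Among 51 groups of libraries examined for a single library far from the rest, 3 had one, where chance gives about 1 in 20. Myh7b in knock-in 3 had a log2 CPM of 5.385, while the other 6 knock-in libraries had 4.421 to 4.815. The same library was lowest in Myl4 and Myl7 and had the lowest Myh7 to Myh6 ratio of its group.

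Myl1 in wild type 2 had a log2 CPM of 5.657, while the other 5 wild-type libraries had 6.470 to 6.800. In the same library the log2 ratio of Myl1 to Myl3 was -6.724, against -5.639 to -5.283 in the others. Without wild type 2 that ratio was still higher in knock-in, by 0.72 on the log2 scale with the other 12 libraries (exact permutation, adjusted p = 0.0121). Technical and biological sources of these values were not tested.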

How the results depend on the processing

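With 13 libraries, 193 of 216 alternative values for the members kept their direction and side of the threshold, and with 10 libraries 146 of 180 did. Myh6, Myl2 and Myl3 kept their calls with 13 libraries except on the scale of other sarcomere genes, where only Myl2 did. That scale, built from genes that fell themselves, also turned Myh7b to 0.17, Myl3 to 0.0308, Myl4 to 0.42 and Mybpc3 to 0.74 with 13 libraries, and Myl7 to 0.26 with 10. Mybpc3 with 13 libraries was 0.12 by library totals, 0.28 by limma on log2 TPM with either pseudocount or no filter (0.278, 0.279), and 0.10 (0.095) with a term for knock-in 4, 5 and 6, under which Myl4 was 0.10. Myl4 with 10 libraries was -0.15, -0.17 and -0.15 by the limma settings. The causes were not tested. Leaving out each library in turn gave -0.11 to 0.25 for Myl1 and -0.75 to 0.0714 for Myl4, -1.12 to -0.26 for Myl7 and 0.055 to 0.33 for Myh7 with 13 libraries, and -0.35 to 0.53 for Myl4 and -0.73 to 0.18 for Myl7 with 10. For the log2 ratios with 13 libraries it gave 0.24 to 0.49 for Myl3 to Myl2, 0.21 to 0.37 for Myl4 to Myl7, -0.19 to 0.64 for Myl7 to Myl2 and -0.34 to 0.60 for Myl4 to Myl3. The last 2 turned upward most without knock-in 3. With 10 libraries it gave 1.12 to 1.46 for Myh7 to Myh6, -1.35 to -0.91 for Myh7b to Myh7, 0.97 to 1.46 for Myl1 to Myl3, 0.83 to 0.95 for Mybpc3 to Myh6, 0.21 to 0.46 for Myl3 to Myl2, -0.26 to 1.41 for Myl7 to Myl2 and -0.43 to 1.46 for Myl4 to Myl3. The calls of Myh7 to Myh6, Myh7b to Myh7 and Mybpc3 to Myh6 were lost there without knock-in 1, 2 or 7. Each such set holds 3 knock-in libraries, so that a ratio passes only when several ratios reach the smallest p possible. Without wild type 2, Myl3 to Myl2 was called with 10 libraries, and without knock-in 3, Myl4 to Myl7 was called with 13. The replicate numbers are not taken to pair the libraries, since not every pair correlated over 0.1: correlations of same-numbered libraries were -0.117 to 0.096 with 13 libraries and -0.029 to 0.292 with 10, where 2 of 3 pairs were over 0.1, and 0 wild-type libraries correlated best with their own number with 13 libraries and 2 with 10. A replicate block called 4811 genes with 13 libraries and 2785 with 10, and under it Myl1 was -0.0479 with 13 libraries and Myl4 -0.74 with 10, and Myh7 with 10 was 0.44 (edgeR, adjusted p = 0.115). With 10 libraries only numbers 1, 2 and 3 occur in both groups. Knock-in 7 and wild type 4, 5 and 6 then add nothing to the comparison of the groups. As paired differences of 6 numbers, the log2 ratios were 1.21 for Myh7 to Myh6, -0.79 for Myh7b to Myh7, -0.0260 for Myl7 to Myl2, 0.84 for Myl1 to Myl3, 0.39 for Myl3 to Myl2 and 0.96 for Mybpc3 to Myh6. These mean differences are the same as those without knock-in 7. The smallest adjusted p seen in the sign-flip test, 0.05, was not under the threshold. Over 6 pairs a ratio can pass only when most of the 8 ratios reach the smallest p possible, so no conclusion is drawn from this. The 3 numbers shared with 10 libraries were not tested as pairs, as a sign-flip test over 3 pairs cannot reach the threshold.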

Other observations

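Other cell populations of the right ventricle, measured as 6 further marker lists, bear on what the myosin values are set against. Fibroblast markers had 1 of 6 higher with 13 libraries and 5 of 6 with 10, and 0 lower in either set. Macrophage and leukocyte markers had 3 of 6 higher with 13 libraries and 5 of 6 with 10. Endothelial markers had 0 of 6 and 2 of 6 higher. Of all genes tested, 23.6% were called higher with 13 libraries and 22.3% with 10. In lists of 6, 1 or 2 genes called higher are near that share. None of 4 adipocyte, 4 mesothelial and 5 erythroid markers was called in either set by edgeR. All 4 epithelial markers tested rose with 13 libraries, and 0 of 4 with 10.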
